A study of Mus musculus with 6 samples.

Results

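Costimulatory receptors are the surface proteins through which a T cell receives its second signal beside the antigen receptor. Described here are 10 of them, taken by name among the 29370 genes of the count matrix: Cd28 and Icos of the CD28 family, 6 members of the TNF receptor superfamily (Cd27, Tnfrsf9, Tnfrsf4, Tnfrsf18, Tnfrsf1b and Tnfrsf14), the lectin receptor Cd69 and the SLAM family receptor Slamf6. All 10 were found and passed the filter on low counts, among 12068 genes tested. The RNA came from wild-type mouse CD8+ T cells (cytotoxic lymphocytes) taken from pancreas, spleen and lymph nodes. Cells were kept for 48 h in T cell medium with 100 µM palmitate, a saturated long-chain fatty acid (3 libraries), or in control medium (3 libraries). What the control medium held in its place, the sex, strain and age of the mice, and whether the libraries stem from separate animals are not stated in the labels. Hence the p-values rest on how far these libraries differ, and that spread could be technical.

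CD28 binds CD80 and CD86 on antigen-presenting cells and supports the first activation of naive T cells, and its relative ICOS binds ICOSL after activation. The TNF receptor family members bind ligands of the TNF family and signal through TRAF adaptor proteins to NF-kappaB. CD27 is already present on resting T cells and marks naive and memory cells, whereas 4-1BB (Tnfrsf9), OX40 (Tnfrsf4) and GITR (Tnfrsf18) are chiefly induced by activation and sustain survival and expansion. CD69 appears early in activation and holds the egress receptor S1PR1 inside the cell, and SLAMF6 binds itself on neighbouring cells and signals through the adaptor SAP.

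The receptors did not move as a block. With palmitate, 4 of the 10 rose (Cd27, Cd28, Cd69 and Tnfrsf14), Tnfrsf9 fell, and 5 did not pass the test. Of all genes tested, 11.1% rose and 11.7% fell (22.9% together), by edgeR's quasi-likelihood test at an adjusted p under 0.05. The receptors' median log2 fold change, palmitate over control, was 0.36, against 0.02 over all genes. The calls above come from a fit on the group alone, which leaves out the replicate numbers. Replicate numbers were taken to pair the libraries, a choice made from these same counts, and no label states such a pairing. A fit that takes the number as a block called 6 receptors higher and 3 lower. It called 16.5% of all genes higher and 16.6% lower (33.1% together). DESeq2 called 5 higher and 1 lower (27.6% of all genes called), and edgeR on summed transcripts 4 higher and 1 lower (25.8%). The block added Slamf6 and Tnfrsf1b above control and Tnfrsf4 and Tnfrsf18 below it, and left Icos alone uncalled. In whole cell populations, fewer cells expressing a receptor and less RNA per cell cannot be told apart.

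**Figure D1:**
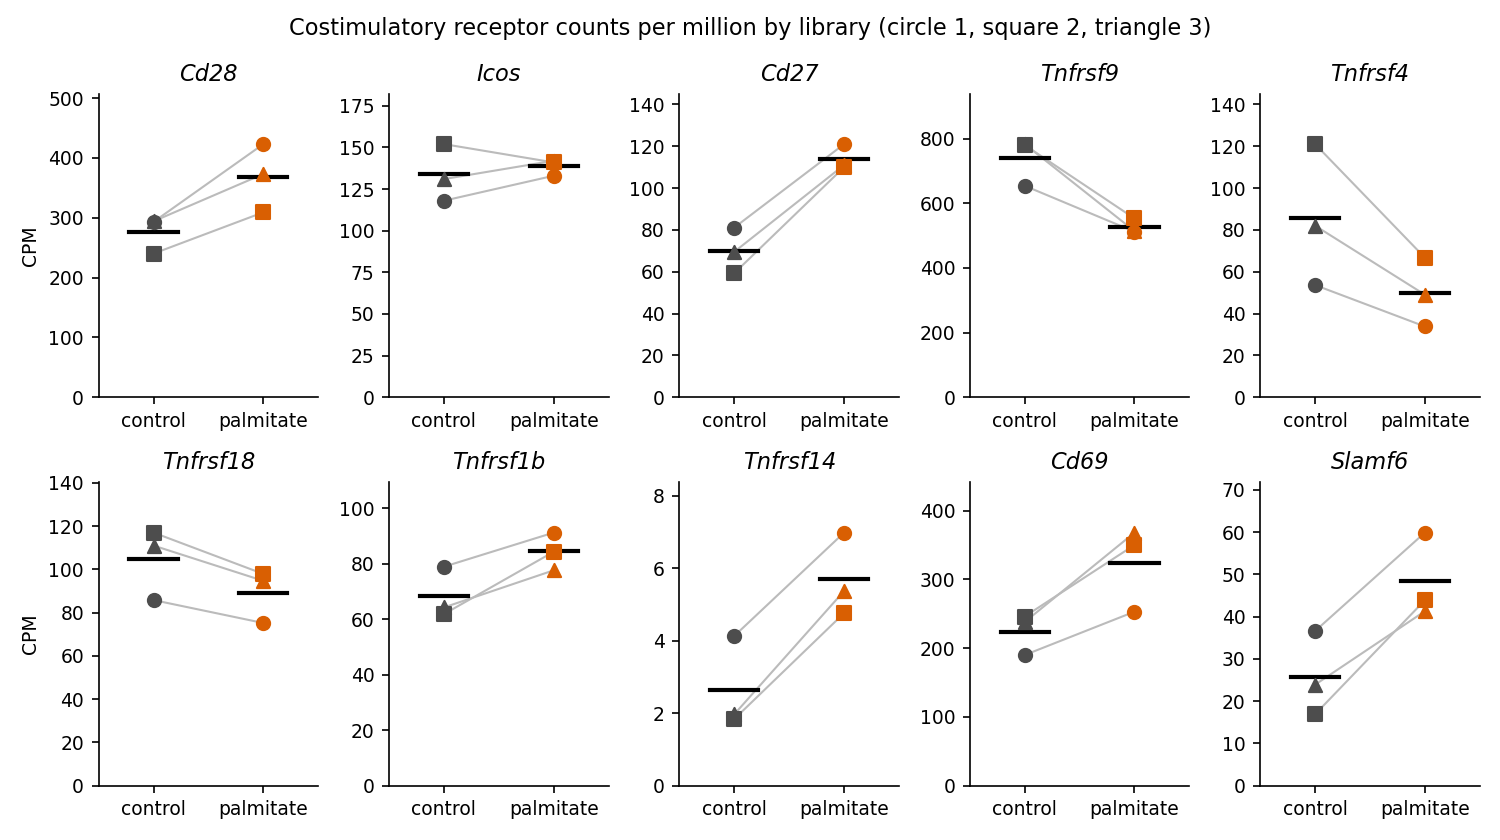
CPM (y axis from 0), counts scaled to a common library total, of each receptor in the 3 control and 3 palmitate libraries. Grey lines join libraries of the same replicate number and black bars are group means. Cd27 rose and Tnfrsf9 fell with no overlap of the groups, and in Tnfrsf4 each palmitate library lay below the control library of its own number although the groups overlap.

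The libraries held 16724588 to 29362276 counts in the gene matrix. From 606 (Tnfrsf14) to 96103 (Tnfrsf9) counts stood behind a receptor over the 6 libraries. The CD8 label was checked against Cd8a, at 315 CPM ± 64.3 in control and 516 CPM ± 36.0 (SD, n = 3) with palmitate, CPM being counts scaled to a common library total and values being means ± SD, with Cd4 between 0.120 and 0.565 CPM. Of 10 T cell and CD8 markers 6 rose, among them Cd3d by 0.53, Cd8a by 0.71 and Cd3e by 0.40 on the log2 scale. The 13 B cell markers summed to 196 to 272 CPM in control and 295 to 330 CPM with palmitate, most of it Ighm; Cd79a alone of the 10 tested passed, the replicate block called 5 higher (Ms4a1, Ighm, Blk and H2-Aa with it, adjusted p = 0.0172, 0.0181, 0.0261 and 0.0284) and DESeq2 4, and Cr2 was at 0.197 CPM or less. The 9 plasma cell markers summed to 737 to 800 and 746 to 819 CPM, nearly all of it Irf4, which T cells also express (717 to 781 CPM). Of 7 tested 3 were higher: Igha rose 9.10-fold (1.88 CPM ± 0.942 to 17.4 CPM ± 9.69), Jchain 5.45-fold (1.78 CPM ± 0.651 to 9.76 CPM ± 2.64) and Iglv1 2.97-fold from under 1 CPM, while Sdc1 (log2 fold change −0.43) and Prdm1 (−0.66) did not pass and Prdm1 fell with the block (adjusted p = 0.0203). The 12 myeloid markers summed to 6.62 to 9.12 and 9.04 to 10.2 CPM, with none of 5 passing. The 7 CD4 and regulatory T cell markers summed to 509 to 977 and 483 to 599 CPM, mostly Il2ra and Ctla4, with Zbtb7b alone of 5 tested higher and Foxp3 at 0.403 CPM or less in every library. For NK cell markers 0 of 5 tested passed (169 to 187 and 146 to 163 CPM, mostly Eomes, which fell with the block at an adjusted p of 0.0220), and for pancreas and stroma 1 of 2, Pecam1 (36.0 to 42.2 and 47.5 to 64.4 CPM). The part of other cell types in the receptors' values was not tested.

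Cd28, the receptor for CD80 and CD86 (ENSMUSG00000026012), measured 293, 240 and 294 CPM in control libraries 1 to 3 and 423, 309 and 373 CPM in palmitate libraries 1 to 3, an order kept for all values below. Every palmitate library lay above every control library, the lowest of them by a narrow margin. The rise was 1.34-fold (log2 fold change 0.42, SE 0.13, adjusted p = 0.0499). This call sat at the threshold: the adjusted p was 0.0638, 0.140 and 0.107 without control library 1, 2 or 3, and 0.144 and 0.128 without palmitate library 1 or 3, with a log2 fold change of 0.30 to 0.46 in these fits. It was 0.00398 with the replicate block. Nearly all of the signal came from the full-length transcript Cd28-201, called only with the block in the test of transcripts that is described with Tnfrsf9 (adjusted p = 0.0958 without it and 0.0455 with it), at 97.6% ± 0.410 of the gene's length-normalised level (TPM, reads scaled by transcript length and library total) in control and 96.4% ± 1.01 with palmitate.

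Icos, the receptor of that family induced after activation (ENSMUSG00000026009), measured 118, 152 and 131 CPM in control and 133, 141 and 142 CPM with palmitate. All palmitate values fell inside the control range. The log2 fold change was 0.05 (SE 0.10, adjusted p = 0.726), and its sign turned to −0.03 without control library 1. Icos was the 1 receptor that neither fit called. Cd28 and Icos lie on chromosome 1 on either side of Ctla4, the inhibitory receptor that competes with CD28 for its ligands, in the RefSeq annotation. Ctla4 measured 132, 388 and 278 CPM in control and 99.8, 123 and 133 CPM with palmitate. Control library 1 touched the palmitate range, and the difference did not pass (log2 fold change −1.17, SE 0.40, adjusted p = 0.0889; 0.106 with the replicate block). It passed with DESeq2 (adjusted p = 0.0226) and without control library 1 (0.00467).

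Cd27, the CD70 receptor of resting and memory T cells (ENSMUSG00000030336), measured 81.1, 59.3 and 69.5 CPM in control and 121, 110 and 111 CPM with palmitate. The groups were well apart, and the palmitate libraries lay close together. Cd27 rose 1.63-fold (log2 fold change 0.71, SE 0.11, adjusted p = 0.00632), and it was the only receptor called in all 6 fits that left out 1 library each. Its log2 fold change lay between 0.60 and 0.82 over all settings tried. The full-length transcript Cd27-201 rose from 61.8, 53.0 and 60.6 CPM to 92.3, 88.4 and 92.9 CPM (log2 fold change 0.72, SE 0.10, adjusted p = 0.0170, in a test of transcripts with a mean of at least 5 CPM that is described with Tnfrsf9; called in 2 of the 6 fits without 1 library). It held 77.7% ± 7.96 of the gene's TPM in control and 74.7% ± 5.68 with palmitate. Cd70, which encodes the ligand, was at 0.378 CPM ± 0.146 in control and 0.355 CPM ± 0.407 with palmitate.

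Tnfrsf9, which encodes 4-1BB (ENSMUSG00000028965), was the most abundant receptor in control cells. It measured 654, 780 and 783 CPM in control and 512, 553 and 514 CPM with palmitate. No palmitate library reached the lowest control library. The level fell 1.40-fold (log2 fold change −0.49, SE 0.09, adjusted p = 0.00987); without control library 3 the adjusted p was 0.0545 at a log2 fold change of −0.45. Set against Cd27 within each library, Tnfrsf9 stood at 8.06, 13.2 and 11.3 times the Cd27 CPM in control libraries and at 4.22, 5.02 and 4.63 times in palmitate libraries. The balance of these 2 receptors' counts thus moved by 1.20 on the log2 scale, given as a description because earlier results showed them moving apart.

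**Figure D2:**
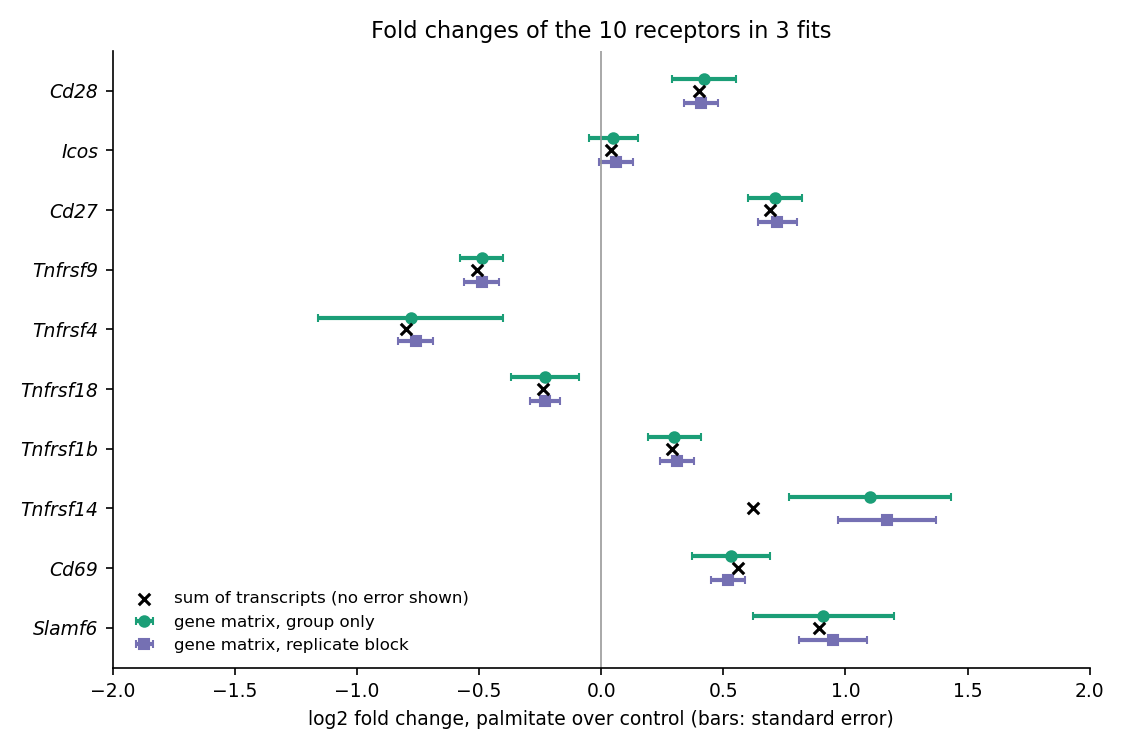
Log2 fold change (x axis, palmitate over control) of each receptor in the fit with the group alone (circles), the fit with the replicate block (squares) and the fit on summed transcripts (crosses). Bars are standard errors; the bar of Tnfrsf4 shrank from 0.38 to 0.07 with the block, and Tnfrsf14 stood at 1.10 in the gene matrix and at 0.62 in summed transcripts.

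The reads of Tnfrsf9 can be followed by transcript. The gene has several annotated first exons and a coding exon that can be left out, and 2 transcripts held most of the reads. Tnfrsf9-205 has 8 exons and 768 coding bases. Tnfrsf9-204 starts 7844 bases upstream of it and skips exon 7, a cassette of 135 bases, a multiple of 3, which leaves 633 coding bases in frame. That exon encodes the membrane-spanning segment, and 4-1BB made without it is known as a soluble form. The exon lies at chr4:150935422-150935556 on the plus strand of GRCm38, and is shown as read from the GENCODE M21 transcript, with exon 7 in capitals between 20 bases of each neighbouring exon, because it is what sets the 2 forms apart. The second line is the junction of the same flanks in the skipping form.
Tnfrsf9-205 exon 7 with flanks: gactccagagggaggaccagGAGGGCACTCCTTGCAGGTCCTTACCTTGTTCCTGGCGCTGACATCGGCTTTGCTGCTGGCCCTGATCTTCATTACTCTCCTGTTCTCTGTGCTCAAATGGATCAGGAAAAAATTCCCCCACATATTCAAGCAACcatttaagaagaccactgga
Tnfrsf9-204 junction: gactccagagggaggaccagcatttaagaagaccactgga

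Tnfrsf9-204, the skipping form, measured 127, 206 and 228 CPM in control and 67.3, 85.2 and 64.1 CPM with palmitate. Every palmitate library was below every control library, by a wide margin from control libraries 2 and 3. Tnfrsf9-205, the membrane form, measured 387, 493 and 455 CPM in control and 328, 367 and 349 CPM with palmitate. Its groups did not overlap either, but lay closer together. Transcripts were first tested with the filter that edgeR sets, where 0 of 39731 transcripts passed (0.0%), 6297 had an unadjusted p under 0.05, and limma-voom called 12. Among 38 receptor transcripts in that test, 15 had an unadjusted p under 0.05 and the lowest adjusted p was 0.0613. The same test recovered 0 of 94 simulated transcripts changed by a log2 of 1, in a simulation where few of the 37205 transcripts changed. A test limited to transcripts with a mean of at least 5 CPM was therefore added after the data had been seen, in which 3.31% of 15453 transcripts rose and 3.85% fell. There Tnfrsf9-204 fell (log2 fold change −1.28, SE 0.21, adjusted p = 0.0226) and Tnfrsf9-205 did not pass (−0.27, SE 0.08, adjusted p = 0.0958). Tnfrsf9-204 lost its call without control library 2 (adjusted p = 0.0855) or 3 (0.0922) and without palmitate library 1 (0.0832) or 3 (0.0793), with a log2 fold change of −1.12 to −1.24. Whether the 2 transcripts changed by different amounts was not tested.

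A minor transcript, Tnfrsf9-203, starts 2693 bases upstream of Tnfrsf9-205, at a first exon that differs from that of Tnfrsf9-204, and keeps exon 7. It measured 15.3, 20.6 and 23.2 CPM in control and 8.93, 7.16 and 5.94 CPM with palmitate, with no overlap. It fell too (log2 fold change −1.33, SE 0.22, adjusted p = 0.0225), a call that 2 of the 6 fits without 1 library kept and the replicate block did not (adjusted p = 0.0593). Tnfrsf9-202, which skips exon 7 but starts 1677 bases downstream, measured 15.2 CPM ± 6.10 in control and 23.1 CPM ± 3.91 with palmitate, did not pass (log2 fold change 0.67, adjusted p = 0.235) and overlapped. Transcripts with an upstream first exon, 4 of the 9 annotated, together held 22.3%, 29.6% and 33.0% of the gene's TPM in control and 15.4%, 17.6% and 13.4% in palmitate libraries. Transcripts skipping exon 7 held 30.3%, 32.3% and 34.7% of the TPM of those that span it in control and 27.0%, 25.4% and 24.9% in palmitate libraries. Neither share overlapped between the groups. Both groupings were made after the transcript values were seen, so they carry no test. Salmon assigns reads shared by transcripts by an estimate that has no error in these files, and the upstream start and the skipped exon are tied together in Tnfrsf9-204.

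**Figure D3:**
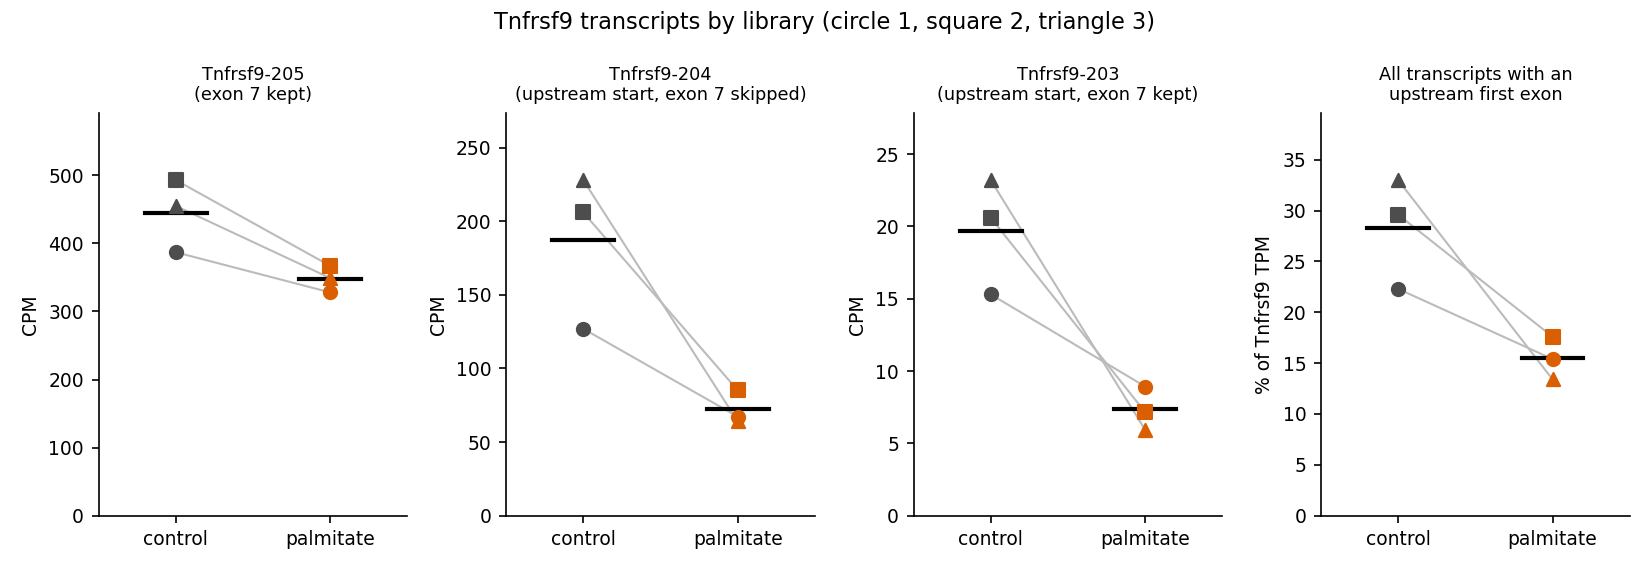
Tnfrsf9 transcripts in each library: CPM of Tnfrsf9-205, Tnfrsf9-204 and Tnfrsf9-203, and the percentage of the gene's TPM in transcripts with an upstream first exon (y axes from 0, grey lines join replicate numbers, black bars are means). Tnfrsf9-204 went from a mean of 187 to 72.2 CPM and Tnfrsf9-203 from 19.7 to 7.34 CPM, against 445 to 348 CPM for Tnfrsf9-205.

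The 2 main starts of Tnfrsf9 have different sequences before them. The 250 bases before each, from RefSeq on GRCm38.p6, are shown with matches to 4 searched motifs in capitals. In the test at 5 CPM or more, Tnfrsf9-204, from the upstream start, had a log2 fold change of −1.28 (SE 0.21). Tnfrsf9-205, from the downstream start, had −0.27 (SE 0.08). In both, every palmitate library lay below every control library. Whether they changed by different amounts, and whether these sequences bear on either change, was not tested. The gene's other starts were not examined. Searched on both strands were an NF-kappaB consensus, the AP-1 core TGANTCA, the Runx core TGTGGT and the forkhead core TGTTTAC.
Tnfrsf9 upstream start, chr4:150919905-150920154, plus strand: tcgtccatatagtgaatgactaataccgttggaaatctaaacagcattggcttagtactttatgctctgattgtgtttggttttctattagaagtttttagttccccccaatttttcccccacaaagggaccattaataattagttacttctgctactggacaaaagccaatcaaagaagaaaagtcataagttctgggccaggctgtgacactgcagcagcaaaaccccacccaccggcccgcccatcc
Tnfrsf9 downstream start, chr4:150927749-150927998, plus strand: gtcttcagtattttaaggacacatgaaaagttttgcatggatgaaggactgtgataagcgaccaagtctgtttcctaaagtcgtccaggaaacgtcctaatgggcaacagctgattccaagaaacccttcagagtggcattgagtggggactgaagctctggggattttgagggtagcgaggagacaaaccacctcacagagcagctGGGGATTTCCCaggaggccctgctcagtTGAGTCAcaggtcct
The downstream window, which precedes Tnfrsf9-205, held overlapping NF-kappaB matches whose last base lies 32 bases before the start, and TGAGTCA ending 8 bases before it. The upstream window, which precedes Tnfrsf9-204, held no match to the 4 motifs. Over 32817 promoter windows of this length, 7.25% held an NF-kappaB match, 6.75% TGANTCA, 14.0% TGTGGT and 3.16% TGTTTAC. Promoter entries matched 7 of the 10 receptors with 8 windows, and that of the downstream Tnfrsf9 start was the only one with any match. The share of all windows with a match to any of the 4 motifs was not counted, so whether 1 of 8 is few or many is not shown. A match of letters is not evidence of binding.

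Tnfrsf4 and Tnfrsf18, which encode OX40 and GITR, are neighbouring genes on chromosome 4. Tnfrsf4 (ENSMUSG00000029075) measured 53.6, 121 and 82.0 CPM in control and 33.8, 66.7 and 49.0 CPM with palmitate. The groups overlapped, yet within each replicate number the palmitate library was the lower. The log2 fold change was −0.78 with an SE of 0.38 and an adjusted p of 0.192, and −0.76 with an SE of 0.07 and an adjusted p of 0.000525 with the replicate block. Tnfrsf18 (ENSMUSG00000041954) measured 85.8, 117 and 111 CPM in control and 75.2, 97.9 and 94.7 CPM with palmitate. It too was lower in palmitate in all 3 pairs while the groups overlapped, with a log2 fold change of −0.23 (SE 0.14, adjusted p = 0.275; 0.0236 with the block). In both genes library 1 was the lowest and library 2 the highest in each group.

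Tnfrsf1b encodes TNFR2, the TNF receptor that lacks a death domain (ENSMUSG00000028599). It measured 79.0, 61.9 and 64.3 CPM in control and 91.3, 84.4 and 77.7 CPM with palmitate. Control library 1 stood above the lowest palmitate library, so the groups overlapped, and all 3 pairs were higher in palmitate. The log2 fold change was 0.30 (SE 0.11, adjusted p = 0.0765), with an adjusted p of 0.0145 with the replicate block and 0.0141 without control library 1.

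Tnfrsf14, which encodes HVEM, the receptor of LIGHT that also engages the inhibitory receptors BTLA and CD160 (ENSMUSG00000042333), had the fewest counts. It measured 4.13, 1.84 and 1.97 CPM in control and 6.98, 4.76 and 5.37 CPM with palmitate. The palmitate libraries were all higher, with control library 1 close to the lowest of them. It rose 2.15-fold in the gene matrix (log2 fold change 1.10, SE 0.33, adjusted p = 0.0462). The matrix held only 28.5% of the gene's transcript reads, because it left out Tnfrsf14-205, the most abundant transcript at 7.98 CPM ± 1.09 in control and 10.6 CPM ± 1.21 with palmitate. Over the sum of all transcripts the log2 fold change was 0.62 (adjusted p = 0.0348), the value that describes the whole gene. In the gene matrix the adjusted p was 0.126 and 0.155 without control library 2 or 3, and 0.141, 0.0727 and 0.100 without palmitate library 1, 2 or 3.

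Cd69, the early activation receptor (ENSMUSG00000030156), measured 190, 246 and 238 CPM in control and 253, 350 and 368 CPM with palmitate. The groups did not overlap, but palmitate library 1 was only just above control library 2. Cd69 rose 1.44-fold (log2 fold change 0.53, SE 0.16, adjusted p = 0.0490). The adjusted p was 0.101, 0.0892 and 0.117 without control library 1, 2 or 3, 0.136 and 0.141 without palmitate library 2 or 3, and 0.00168 with the replicate block. The matrix counted 74.4% of its transcript reads, and the log2 fold change over all transcripts was 0.56 (adjusted p = 0.0225). Transcripts of Cd69 that retain introns were tested beside the spliced ones. Cd69-202, which retains an intron, averaged 0.28 CPM ± 0.307 in control and 1.01 CPM ± 1.26 with palmitate, too low for the test that follows. In the test of transcripts with at least 5 CPM, Cd69-205, which retains an intron, rose from 12.8, 10.3 and 11.5 CPM to 19.6, 33.5 and 21.6 CPM (log2 fold change 1.19, SE 0.23, adjusted p = 0.0335). Cd69-204, the other such transcript in that test, rose by 0.58 (adjusted p = 0.0216). Each was called in at most 2 of the 6 fits without 1 library, and with the block these 2 had adjusted p-values of 0.0756 and 0.0515. The spliced Cd69-201 did not pass there (0.56, adjusted p = 0.0788) and passed with the block (0.0360), and the spliced Cd69-203 passed in neither (0.77, adjusted p = 0.167 and 0.0692).

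Slamf6, which encodes Ly108 (ENSMUSG00000015314), measured 36.6, 16.9 and 23.9 CPM in control and 59.9, 43.9 and 41.3 CPM with palmitate. The groups did not overlap, though control library 1 came near the palmitate range. The log2 fold change of 0.91 (SE 0.29) missed the threshold (adjusted p = 0.0691), and the gene passed with the replicate block (0.95, SE 0.14, adjusted p = 0.00461), with DESeq2 (adjusted p = 0.00300) and without control library 1 (1.24, adjusted p = 0.0128). Its transcript Slamf6-201, with 993 coding bases, rose from 7.12, 4.57 and 6.42 CPM to 14.9, 11.2 and 12.9 CPM (log2 fold change 1.18, SE 0.24, adjusted p = 0.0367; called in 1 of the 6 fits without 1 library). The longest form, Slamf6-207 with 1053 coding bases, did not pass (0.84, SE 0.32, adjusted p = 0.143). Neither did Slamf6-204, whose groups overlapped (0.81, SE 0.41, adjusted p = 0.244). Slamf6-204 held the largest share of the gene's TPM, 45.2% ± 6.34 in control and 42.0% ± 1.11 with palmitate. In all, 4 receptor transcripts rose and 2 fell of the 20 with at least 5 CPM, and the block called a different set: Cd28-201, Cd69-201 and Tnfrsf4-201 (adjusted p = 0.230 and 0.0324) were added, and Cd69-204, Cd69-205 and Tnfrsf9-203 were lost. Of the 10 receptors, 6 had groups that did not overlap in CPM, against 42.9% of all genes.

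**Figure D4:**
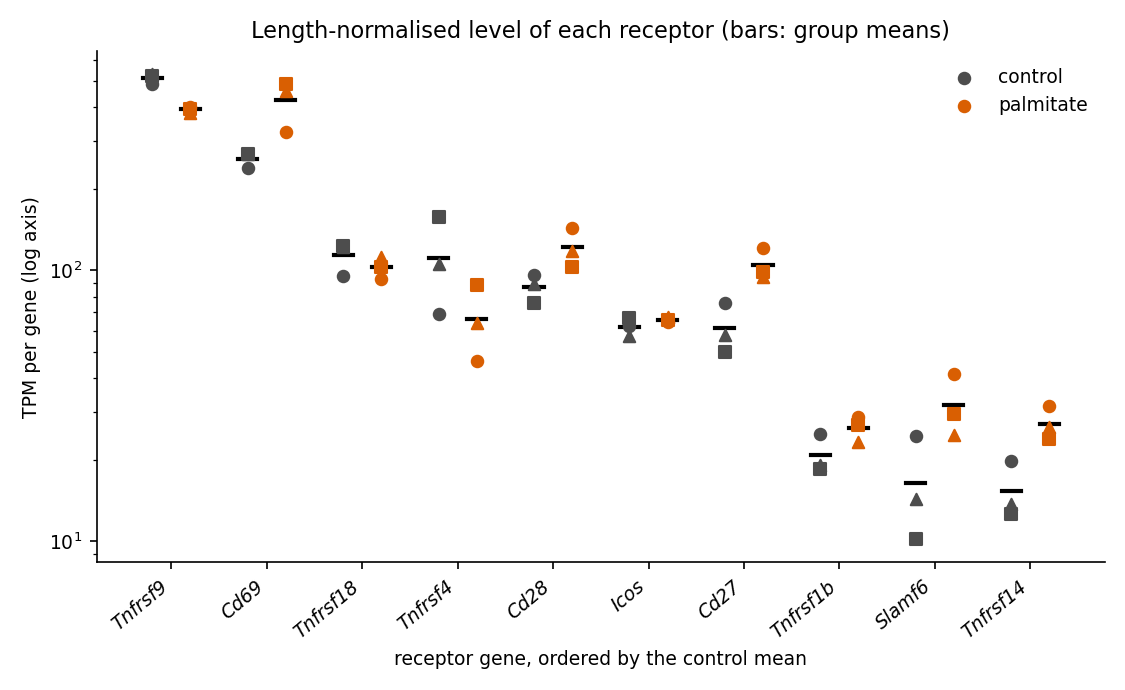
TPM of each receptor, summed over its transcripts, per library on a log axis, ordered by the control mean; black bars are group means. Tnfrsf9 led in control at 514 TPM and Cd69 in palmitate libraries at 424 TPM, and Slamf6 and Tnfrsf14 were the least abundant in control libraries.

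Per transcript length, the receptors spanned a wide range of levels and changed order. In control libraries Tnfrsf9 came first at 514 TPM ± 22.2, followed by Cd69 at 258 TPM ± 17.3, apart from each other and from the rest. Tnfrsf18 (114 TPM ± 15.8), Tnfrsf4 (111 TPM ± 43.9) and Cd28 (87.1 TPM ± 10.6) overlapped as neighbours. Icos (62.1 TPM ± 4.69) and Cd27 (61.2 TPM ± 13.1) formed the next overlapping pair, and Tnfrsf1b (20.9 TPM ± 3.52), Slamf6 (16.4 TPM ± 7.33) and Tnfrsf14 (15.4 TPM ± 3.88) the last group. In palmitate libraries Cd69 (424 TPM ± 86.4) and Tnfrsf9 (393 TPM ± 9.90) overlapped at the top. Cd28 (122 TPM ± 21.0), Cd27 (105 TPM ± 14.3) and Tnfrsf18 (103 TPM ± 9.65) came next and overlapped as neighbours, above Tnfrsf4 (66.2 TPM ± 20.9) and Icos (65.9 TPM ± 1.26). Slamf6 (31.9 TPM ± 8.60), Tnfrsf14 (27.2 TPM ± 3.91) and Tnfrsf1b (26.3 TPM ± 2.83) stayed the lowest. The level of Tnfrsf9 was 8.41 times that of Cd27 and 1.99 times that of Cd69 in control libraries, and 3.75 and 0.928 times in palmitate libraries.

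The ligands of these receptors are made chiefly by antigen-presenting cells, and some by T cells themselves. Of 10 tested ligands 4 rose and 0 fell, with a median log2 fold change of 0.62. Over all genes tested 11.1% rose and 11.7% fell, the shares to set beside this and each later list count. Cd86 rose from 5.71, 5.41 and 6.45 CPM to 9.40, 13.6 and 14.8 CPM (log2 fold change 1.10, SE 0.19, adjusted p = 0.00773), in all 6 fits without 1 library. Cd80 rose from 3.23, 4.37 and 2.85 CPM to 7.30, 12.7 and 6.62 CPM (1.36, SE 0.29, adjusted p = 0.0158), with 39.3% of its transcript reads in the matrix and 1.03 over all transcripts. Both CD28 ligands were thus low, and in each palmitate library above every control library. Tnfsf4, the OX40 ligand, rose from 16.9, 21.3 and 19.6 CPM to 31.9, 62.5 and 37.8 CPM (1.20, SE 0.25, adjusted p = 0.0200; called in 3 of the 6 fits without 1 library). Tnfsf14, which encodes LIGHT, rose by 0.40 (SE 0.11, adjusted p = 0.0324; called in 1 of 6). Ltb, the lymphotoxin subunit, did not pass (0.85, adjusted p = 0.248) and rose with the replicate block (adjusted p = 0.000711). Tnf (127 CPM ± 22.1 and 136 CPM ± 17.3), Lta (156 CPM ± 16.5 and 152 CPM ± 24.6), Tnfsf9 and Cd70 did not pass, and Tnfsf18 was at 0 counts in every library. Icosl, with 48.5% of its transcript reads in the matrix, did not pass there (1.29, adjusted p = 0.514) and rose over all transcripts (1.21, adjusted p = 0.0142). B cell marker sums were higher in the palmitate libraries, as given above, and B cells can carry Cd80 and Cd86; Cd74 was at 21.0 CPM ± 4.28 and 33.2 CPM ± 7.76 (adjusted p = 0.0544). Their part in the ligand values was not tested.

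Among the 4 inhibitory partners 1 rose, Btla, by 0.34 (SE 0.09, adjusted p = 0.0325), from 96.1 CPM ± 7.43 to 122 CPM ± 11.9. Cd160, the other HVEM partner, passed only with the block (0.30, adjusted p = 0.235 and 0.0177), and Pdcd1 passed in neither fit (0.17, adjusted p = 0.411). Of 17 other TNF receptor genes 4 rose and 1 fell, with a median of 0.25. Tnfrsf26, a mouse receptor without a death domain, rose 2.82-fold, from 21.0, 14.9 and 19.4 CPM to 57.2, 48.8 and 50.3 CPM (log2 fold change 1.50, SE 0.14, adjusted p = 0.00201). Eda2r rose by 2.16 from under 1 CPM and Tnfrsf21 by 0.58 (adjusted p = 0.0131 and 0.0288), and Tnfrsf22 by 0.39 (adjusted p = 0.0482). Cd40 and Tnfrsf25 passed only with the block (adjusted p = 0.0433 and 0.0381). Tnfrsf8, the gene of the activation receptor CD30 and the chromosomal neighbour of Tnfrsf1b, fell from 60.7, 83.9 and 87.1 CPM to 15.6, 36.0 and 36.7 CPM (−1.40, SE 0.35, adjusted p = 0.0375), a call that 1 of the 6 fits without 1 library kept. Tnfrsf8 thus moved down like Tnfrsf9, and Tnfrsf26 up by a larger log2 fold change than any of the 10 receptors.

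Of 8 tested SLAM family, CD2 and SAP genes 1 rose, with a median of 0.01. It was Cd84, the neighbour of Slamf6 on chromosome 1, at 64.9 CPM ± 8.24 and 83.2 CPM ± 7.61 (0.36, SE 0.11, adjusted p = 0.0478). Cd48 (−0.28, adjusted p = 0.0582) and Sh2d1a, the gene of the adaptor SAP (−0.50, adjusted p = 0.117), fell only with the replicate block (adjusted p = 0.0255 and 0.00149). In the CD69 and S1P list 2 of 5 rose and 0 fell, and the block added S1pr4 and Gnai2 (adjusted p = 0.0142 and 0.0482). S1pr1, the egress receptor that CD69 protein retains, rose 3.13-fold from 14.9, 12.2 and 8.32 CPM to 53.8, 32.7 and 24.0 CPM (1.65, SE 0.35, adjusted p = 0.0230), and Klf2, its transcription factor, rose by 2.21 (SE 0.42, adjusted p = 0.0130). Cd69 and S1pr1 RNA were thus both higher in every palmitate library.

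Downstream of the TNF receptors, 3 of 19 TRAF and NF-kappaB pathway genes, not all of them of the noncanonical branch, rose and 0 fell, with a median of 0.21. The replicate block gave 8 rises and 2 falls, where it called 16.5% of all genes higher and 16.6% lower. Map3k14, the kinase NIK of the noncanonical pathway, rose by 0.56 (SE 0.11, adjusted p = 0.0123) and Ikbkg, the regulatory subunit of the IKK complex, by 0.38 (SE 0.07, adjusted p = 0.00952), both in all 6 fits without 1 library. Cyld, a deubiquitinase that limits NF-kappaB signalling, rose by 0.61 (adjusted p = 0.0166), with 14.8% of its transcript reads in the matrix and 0.31 over all transcripts. Downstream of CD28 and ICOS, 4 of 15 genes rose and 2 fell, with a median of 0.17. Prkcq, which encodes the kinase PKC-theta, rose by 0.36 (SE 0.07, adjusted p = 0.00995) and Pik3r1 by 0.32 (adjusted p = 0.0265), while the adaptor Grb2 fell by 0.37 (adjusted p = 0.0303). The other fall was Pdk1 (−0.29, adjusted p = 0.0406), a symbol that stands for a pyruvate dehydrogenase kinase and not for a CD28 signalling gene.

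**Figure D5:**
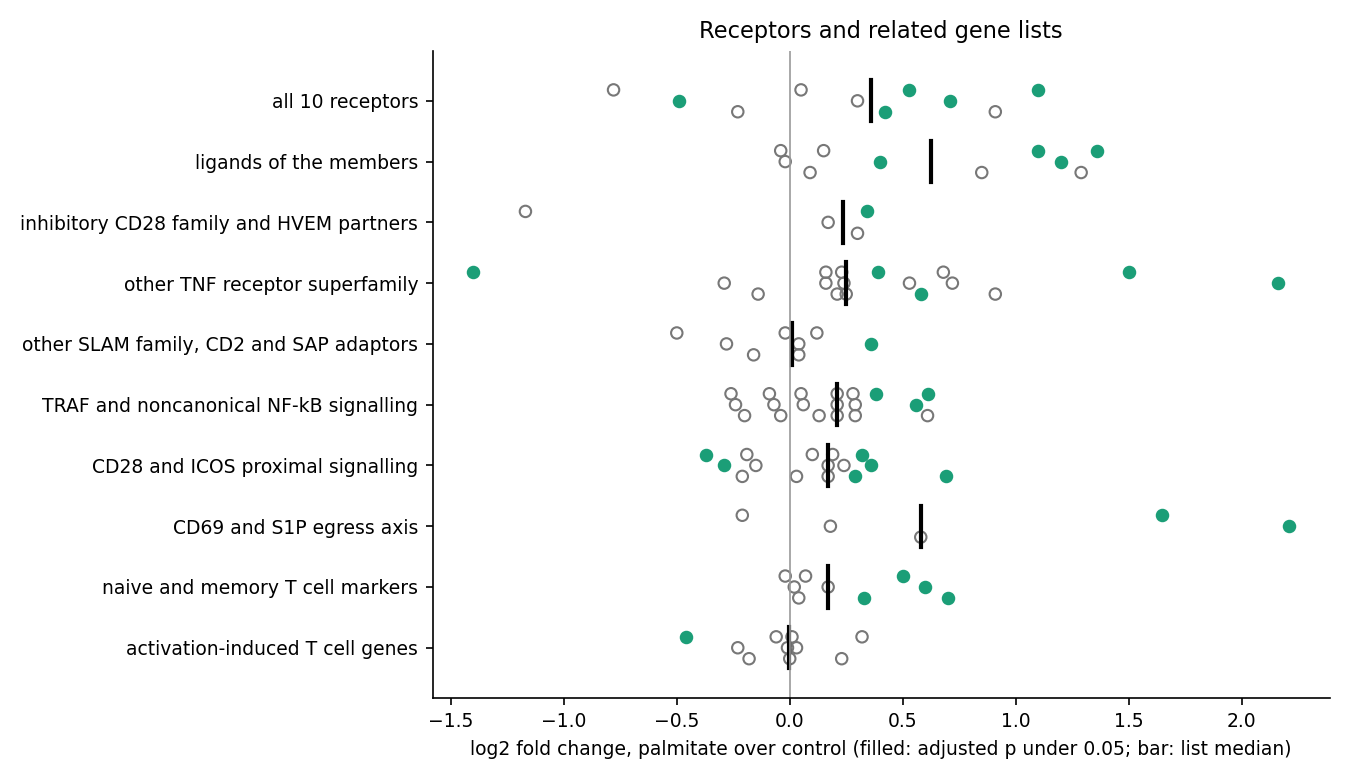
Log2 fold change (x axis, palmitate over control) of each tested gene, by list; filled points passed an adjusted p of 0.05, open points did not, and black bars are list medians. The receptors spread to both sides of 0 around a median of 0.36, and those that passed were 4 above 0 and 1 below. The tested ligands had a median of 0.62 and reached just below 0, and the 4 that passed lay above 0.

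Genes that accompany the resting and the activated state were read beside the receptors. Of 9 naive and memory markers 4 rose and 0 fell: Bcl2 by 0.70 (SE 0.10, adjusted p = 0.00524), Bach2 by 0.60 (SE 0.10, adjusted p = 0.00788), Tcf7 by 0.50 (SE 0.10, adjusted p = 0.0113) and Lef1 by 0.33 (adjusted p = 0.0201). Il7r (0.17) and Ccr7 (0.07) did not pass. Of 10 activation-induced genes 0 rose and 1 fell, Batf by 0.46 (adjusted p = 0.0491), with a median of −0.01. Il2ra (−0.18), Tfrc (−0.06) and Il2 (−0.23) did not pass, and neither did Nr4a1 and Egr2, which rose with the replicate block (adjusted p = 0.0200 and 0.0354); the log2 fold change of Egr2 was 0.23, and −0.19 with transcript-length offsets. Over all 9 related lists 23 genes rose and 4 fell, against 36 rises and 8 falls under the replicate block. The number of genes tested is given with each list above. Of all genes tested, 11.1% rose and 11.7% fell, and 16.5% and 16.6% did so under the block. Without control library 3 the counts over the 9 lists were 6 and 0, in a fit that called 690 of all genes, against 2759 with all libraries. In the fits that left out 1 library each, Tnfrsf26, Bcl2 and Bach2 were called in all 6, Klf2, Eda2r, Prkcq and Tcf7 in 5, and S1pr1, Cyld and Pik3r1 in 3. Btla, Grb2, Lef1 and Tnfrsf22 were called in 2, and Tnfrsf21, Cd84, Pdk1 and Batf in 1.

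The genes closest in profile to each called receptor were taken from 8851 genes by the root-mean-square difference of centred log2 CPM over the 6 libraries. For Cd27 they were Cux1 (0.0247), Ip6k1 (0.0427) and Def8 (0.0444), and for Tnfrsf9 Rab28 (0.0166), Nae1 (0.0289) and Rpap2 (0.0332). For Cd28 they were Csnk1g2 (0.0485), Acaa2 (0.0513) and Kremen1 (0.0578), and for Cd69 Sesn2 (0.0754), Tbc1d12 (0.0850) and Ifngr2 (0.0853). Tnfrsf14 had no profile as close, its nearest being Adgrg5 (0.115), Arhgap4 (0.124) and Slc25a45 (0.132). No receptor was among another receptor's 3 nearest genes. With 3 places among 8851 genes, that says little about whether the receptors share a profile.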

How the data were processed

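The labels describe RNeasy extraction of total RNA and SMARTER mRNA-Seq libraries. Tools in the submitters' processing notes are Salmon 1.10.0, Trim Galore 0.6.10 and DESeq 1.42.0, with GRCm39 as the build. The files deposited by the authors are a gene matrix holding estimated counts as whole numbers (0 columns unused), and Salmon tables with expected counts and TPM per transcript; effective lengths, also deposited there, served as an alternative scaling. No source used here gives the strand setting or the table joining transcripts to genes. The matrix equalled the transcript sum within 1.5 reads per library for 8 of the 10 receptors. Symbols and exons came from GENCODE M21 (GRCm38), in which all 48 receptor transcripts have the deposited lengths, and promoters and gene neighbours from RefSeq (GRCm38.p6); the builds differ from the submitters' GRCm39, so coordinates are those of GRCm38.

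Rounded counts were tested with edgeR 4.0.16 in R 4.3.3 (TMM scaling, edgeR's filter, robust quasi-likelihood fit on the group alone, two-sided, Benjamini-Hochberg over all genes). CPM are on TMM-scaled totals. The test gives no SE of its own, so each SE is the size of the log2 fold change divided by the square root of the F statistic. The receptors and lists were chosen with earlier results of these data known. Named from each list were the 3 genes of smallest adjusted p, those against its direction and all tested ligands; other named genes were chosen after their values were seen. Some genes counted in the lists are not reported here by name. Deviations of same-numbered libraries correlated across genes at 0.30, 0.19 and 0.17 (other pairs −0.25 to 0.08), all over 0.1, so the numbers were taken to pair the libraries; block values are given where they change a call, for the TRAF list as counts. These correlations are not independent of each other, because each deviation is taken from the mean of its group. Replicates differed by more than sampling noise (chi-square per gene 10.8 to 35.0). On simulated data of 11896 genes the gene test recovered 70.4% of 98 genes changed by a log2 of 1 and 25.0% of 96 changed by 0.5. For transcripts of at least 5 CPM this was 40.2% of 92 and 7.29% of 96. Changed genes were a far smaller part there than the 22.9% called in these data. A smaller part makes the adjusted p stricter, so these shares may be too low for these data. Alternatives were other scalings and filters, DESeq2 1.42.0, limma-voom (limma 3.58.1), the block, transcript sums and each library left out.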

Additional observations from a re-analysis of the deposited data

How the results depend on the processing

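The receptors' directions held under the settings tried except that of Icos, whose log2 fold change was −0.03 without control library 1, and −0.03 to 0.15 over the fits without 1 library. Cd27 passed in all 15 alternatives and Tnfrsf9 in 14 of 15. The 4 rises became 2 with RLE scaling and with limma-voom, and 1 to 4 when 1 library was left out. The 1 fall became 3 with the replicate block, and 0 to 1 when 1 library was left out. The block changed no receptor's call beyond the 4 given in the report. Genes called, 2759 in all, numbered 690 to 3433 without 1 library each, the lowest without control library 3; these fits hold fewer samples. In the related lists, 23 rises became 36 with the replicate block and 6 to 26 without 1 library. The 4 falls there became 2 with upper-quartile scaling, 7 with DESeq2, 8 with the block and 0 to 7 without 1 library. Receptor transcripts called were 0 with edgeR's own filter, 6 at a mean of at least 5 CPM, 6 with the replicate block there, a different set named in the report, and 0 to 8 there without 1 library. The order of TPM levels, averaged over all libraries, kept all 10 places with recomputed TPM and 6 to 10 without 1 library, and the leading transcript of each of the 10 receptors stayed the same. The log2 ratio of Cd27 to Tnfrsf9 moved by 1.20 with the gene matrix and with transcript sums. With 3 libraries a group, changes of 0.5 on the log2 scale are found in a minority of cases, so receptors that did not pass are not shown to be unchanged.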
